A study of Oryza sativa with 12 samples.

Results

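The onset of grain filling was followed in the wildtype rice *WYJ8* (Wuyujing 8) by comparing caryopses collected 10 days after flowering (DAF) with caryopses collected 5 DAF. These were 6 of the 12 libraries of the series, 3 at each stage, chosen by their labels. Both groups are untreated wildtype without a transgene. The other 6 libraries came from *RGB1Ri-5*, a line of the same background in which an RNA interference construct targets *RGB1*, the gene of a G protein subunit, and they were used only where the stage change of the wildtype was set beside that of the line. RNA was taken from grains of field-grown plants, so embryo, endosperm, seed coat and pericarp were measured together. Levels are FPKM, the fragments of a gene relative to the length of its transcript and to all fragments mapped. FPKM is thus a share of the library, and a gene can fall in FPKM because others rise.

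Between 5 and 10 DAF a rice caryopsis passes from the laying down of endosperm cells to the filling of those cells with starch and storage proteins. The maternal tissues around the endosperm, the nucellus and the seed coat, are degraded or compressed in the same period. Auxin rises in filling grains, and *OsYUC11* codes for an endosperm enzyme of auxin synthesis. The genes that can be named here are 128 transcription factors and *Ubq*, a ubiquitin gene that served as a qRT-PCR reference. The factors are the entries of the study's prediction for the *OsYUC11* upstream region that carry an identifier of the deposited files. The rest of that prediction was not analysed here. The factors were listed for a predicted DNA site and not for their behaviour in grains. They cover families known from auxin response (ARF), flower and ovule identity (MADS box), cell proliferation (TCP), organ and panicle growth (SBP), leucine zipper homeodomain factors, and the NF-YB subunits of the CCAAT-binding complex.

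The predicted sites show how the list falls into groups, since members of a family were assigned the same stretch of the *OsYUC11* upstream region. The sites are written as in the study's prediction, with the core of the match in capitals. Most groups share more than the site given. The sites are shown because the factors sharing them are compared below.
All 18 MADS-box factors: cCAAAAaaact
All 24 ARF factors: gAGACA
A further site of 10 of the ARF factors: gtTGTCGgg
A site of 18 SBP factors: ttGTACTtt
HD-Zip I factors (*OsHOX16* and 7 others): cAATAAtta
HD-Zip II factors (*OsHOX1* and 9 others): aaAATCAttt
HD-Zip III factors (*OsHOX9*, *OsHOX10*, *OsHOX32*, *OsHOX33*): cccaataATCATgacatat
HD-Zip IV factors (*OsROC1* to *OsROC5* and *OsROC7*): cacTTAATga
*OsDREB2C* and 3 other DREB2 factors: cCACCGaaa
These are predictions from sequence, and the data here say nothing about binding.

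Libraries of 1 stage were alike, with pairwise correlations of log2 values across genes of 0.968 to 0.977 at 5 DAF and of 0.978 to 0.989 at 10 DAF (genes are not independent replicates). Replicate 3 of 5 DAF stood apart. The 508 genes that were higher at 10 DAF (below) held 5.13%, 4.15% and 11.4% of the summed FPKM in the 5 DAF replicates 1, 2 and 3, and replicate 3 had the highest value of the 3 for 402 of them. It also had the lowest value for 1143 of the 1575 genes that were lower at 10 DAF under both scalings. Replicate 2 of *RGB1Ri-5* at 10 DAF stood apart in the same way, with 10.2% against 1.36% and 1.2% in the other libraries of its group. Results are therefore also given without replicate 3 of 5 DAF where it matters. The endosperm factor gene *OsNF-YB1* was present at 133 FPKM or more in all 6 wildtype libraries, which are labelled caryopsis. The labels do not say whether replicates came from separate plants, so p-values measure the spread between these samples.

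The transcriptome became concentrated in a small number of genes. The 100 highest genes of each library held 15.5%, 15.5% and 22.4% of the summed FPKM at 5 DAF and 48.7%, 50.3% and 52.8% at 10 DAF. The means were 17.8% ± 3.98 and 50.6% ± 2.07 (SD, n = 3), and the stages did not overlap (two-sided exact permutation test, p = 0.1, the smallest that 3 against 3 allow). Without replicate 3 the mean at 5 DAF was 15.5%. The 10 highest genes alone held 4.18%, 4.78% and 8.65% at 5 DAF and 23.1%, 22.0% and 24.4% at 10 DAF. To reach 50% of the sum, 1460, 1489 and 1109 genes were needed at 5 DAF, but 119, 97 and 67 at 10 DAF. The number of genes over 5000 FPKM was 1, 1 and 3 at 5 DAF and 17, 20 and 19 at 10 DAF. At the same time the median of the tested genes went from 11, 11.9 and 10.3 FPKM at 5 DAF to 5.83, 5.77 and 5.46 at 10 DAF. Fewer genes were listed at 10 DAF, 27055 to 27260 against 29051 to 29576.

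**Figure D1:**
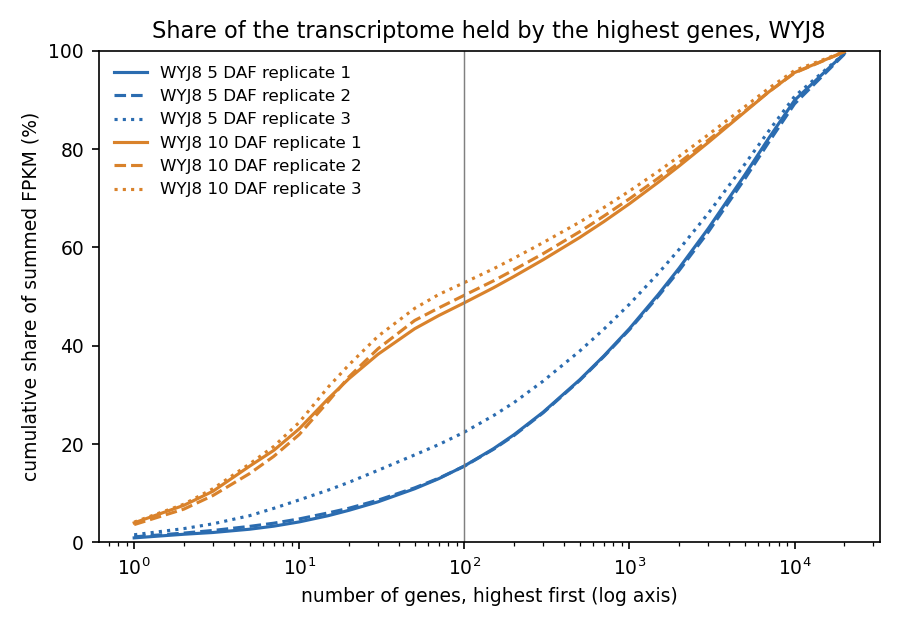
Cumulative share of the summed FPKM (percent, vertical axis) held by the highest genes (number of genes on a log axis) in each of the 6 *WYJ8* libraries, blue for 5 DAF and orange for 10 DAF, with a grey line at 100 genes. At 100 genes the 10 DAF curves lie between 48.7% and 52.8% and the 5 DAF curves between 15.5% and 22.4%, the highest being replicate 3.

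The genes that came to dominate were already active at 5 DAF. Of the 20 genes highest at 10 DAF in the mean, 8 were among the 20 highest at 5 DAF, 1 of them the highest of all, and the lowest ranked 605th. Their means ranged from 133 to 5829 FPKM at 5 DAF and from 4282 to 22834 FPKM at 10 DAF. Together they held 3.45%, 3.04% and 8.71% of the sum at 5 DAF and 33.3%, 32.1% and 35.9% at 10 DAF. Of the 100 highest genes at 10 DAF, 83 had a mean above 100 FPKM at 5 DAF, 0 had a mean under 10, and 54 were also among the 100 highest at 5 DAF. These 20 and 100 genes were picked by their 10 DAF level, so their rise is a description.

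The highest gene at 10 DAF was LOC_Os05g41970 (chr5:24576896-24577736, coordinates of MSU Release 7). Its level was 1684, 1601 and 3889 FPKM at 5 DAF and 24102, 21895 and 22505 FPKM at 10 DAF. The next was LOC_Os07g10580 (chr7:5741848-5742542), with 379, 343 and 2325 FPKM at 5 DAF and 21536, 19008 and 25597 FPKM at 10 DAF. Both are given by identifier because no source used here pairs it with a product. In each, all 10 DAF libraries were above all 5 DAF libraries, and replicate 3 was the highest at 5 DAF. The log2 changes were 3.38 ± 0.57 (SE, limma adjusted p = 0.00045) and 5.03 ± 0.71 (adjusted p = 0.00017) as deposited. Without replicate 3 they were 3.80 and 5.92. The call of LOC_Os05g41970 was lost when all genes with a value above 0 were fitted (adjusted p = 0.13).

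Some of the dominating genes sit close to each other. Among the 100 highest at 10 DAF, genes within 100 kb of one another formed 4 runs of 3 or more, 21 genes in all. On chromosome 7, 7 genes at chr7:6244129-6433170 summed to 2060, 1566 and 6843 FPKM at 5 DAF and to 30826, 30547 and 33163 FPKM at 10 DAF, which was 5.17% of the summed FPKM in the mean. A shorter run close by, 3 genes at chr7:6609123-6613762, summed to 190, 290 and 860 FPKM and then to 7966, 7751 and 9366 FPKM. On chromosome 2, 4 genes at chr2:8406569-8467151 went from 3397, 2617 and 6436 FPKM to 28867, 30486 and 32711 FPKM, or 5.04% of the sum. The run on chromosome 5 behaved differently at 5 DAF. Its 7 genes at chr5:15330468-15401612 summed to 704, 496 and 498 FPKM at 5 DAF, so replicate 3 was not raised there. At 10 DAF they summed to 19227, 15916 and 28055 FPKM, the widest spread among the runs. All 21 genes were called higher under both scalings, with log2 changes as deposited from 2.93 to 5.54. They were taken from the 100 genes highest at 10 DAF, of which 64 were called higher under both scalings, so this is a description. Neighbouring genes of a run may be copies of each other, and how reads that match several copies were assigned is not given in the sources used here, so the sum of a run is firmer than the value of 1 gene in it.

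The comparison across all genes was fitted on FPKM as deposited and after median-of-ratios rescaling, which divides each library by its median ratio to the average library and so sets the typical gene to no change. A gene was called at a limma adjusted p under 0.05 and a log2 change of at least 1 on the log2(FPKM + 1) scale, which understates the change of low genes. Of the 20257 genes that averaged 1 FPKM or more, 508 (2.51%) were called higher and 7139 (35.2%) lower at 10 DAF as deposited. After rescaling, 1462 (7.22%) were higher and 1575 (7.78%) lower. The share of calls that were higher thus went from 6.64% to 48.1%. Rescaling moved the median log2 change from -0.79 to 0.01, a shift of 0.80. The shift of single genes differed, since the added 1 FPKM damps it at low levels. As deposited, 90.1% of the tested genes had a log2 change below 0. Without replicate 3 of 5 DAF the counts were 573 higher and 7939 lower as deposited, and 1618 and 1708 after rescaling. In bulk grains, fewer cells of a type and less RNA per cell cannot be told apart.

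All 508 genes that were higher as deposited were also higher after rescaling, and all 1575 that were lower after rescaling were also lower as deposited. Calls of 5564 genes as lower and of 954 genes as higher depended on the scaling, and 0 genes were called in opposite directions. The 508 genes took 45.8%, 45.9% and 50.3% of the summed FPKM at 10 DAF, from 5.13%, 4.15% and 11.4% at 5 DAF. Their deposited values did not overlap between the stages for 497 of them. This follows largely from the call, which used the same libraries, and the share among all tested genes was not counted. The 1575 genes went from 8.44%, 9.65% and 8.17% of the sum to 1.21%, 1.51% and 0.983%. The 5564 genes lower only as deposited, by contrast, held 24.9%, 26.4% and 21.8% at 5 DAF and 8.89%, 9.22% and 7.69% at 10 DAF. On the rescaled log2 scale, 168 of the 508 genes rose by at least 3 and 41 by at least 5. Of the 1575 genes, 40 fell by at least 3 and 3 by at least 5. The 1575 genes and both of these counts include LOC_Os01g55690, which was not listed at 10 DAF and was set to 0 there (below).

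**Figure D2:**
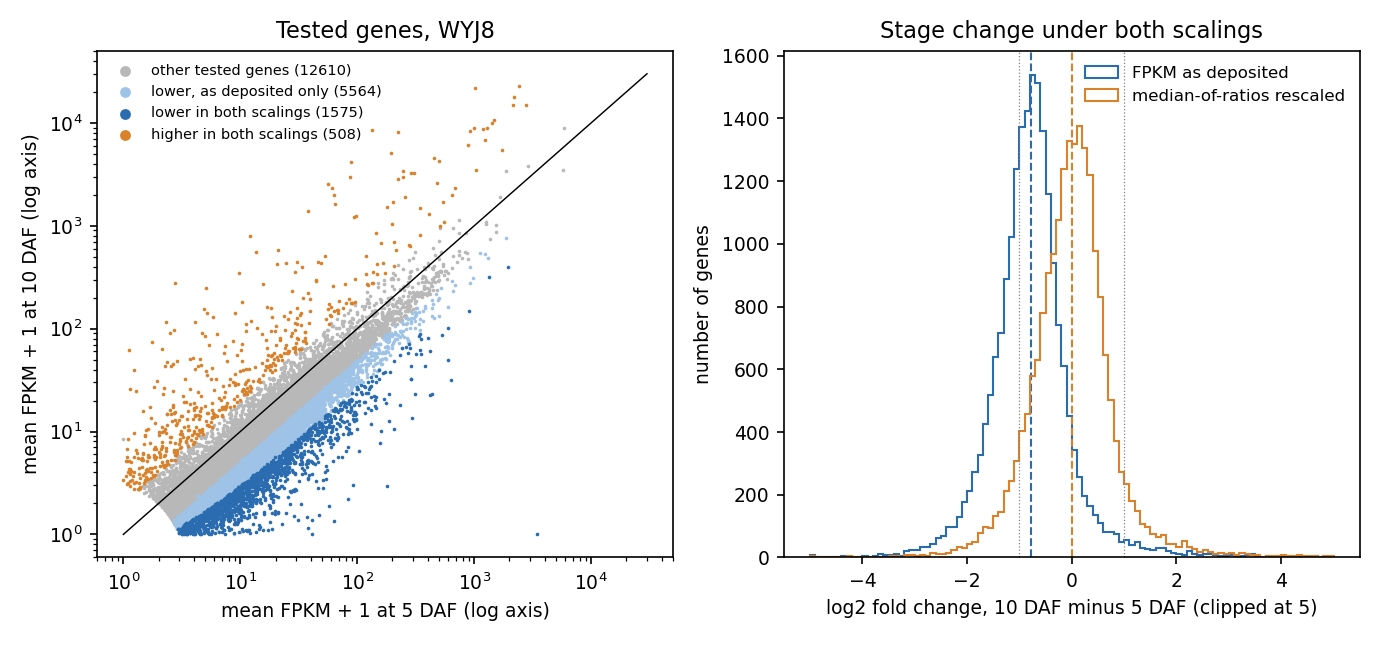
Left, mean FPKM + 1 of the 20257 tested genes at 5 DAF (horizontal) and 10 DAF (vertical), both on log axes, coloured by call, with the line of equal means. Right, number of genes by log2 change (10 DAF minus 5 DAF, clipped at 5) as deposited and after median-of-ratios rescaling, with dashed medians at -0.79 and 0.01 and dotted fold limits. Most points lie below the line, while the highest genes lie far above it.

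Switching on or off was rare on the deposited scale. Only 11 genes had a mean under 1 FPKM at 5 DAF and at least 10 FPKM at 10 DAF. In the other direction, 55 genes had at least 10 FPKM at 5 DAF and under 1 FPKM at 10 DAF. Among these 55, 1 was not listed in the 3 libraries of 10 DAF. The means at 5 DAF include replicate 3, and these counts were not made after rescaling. The highest of the 5 DAF genes to be called lower under both scalings, other than a gene that was not listed at 10 DAF, was LOC_Os12g36880 (chr12:22599951-22601258). Its level was 1730, 2685 and 1359 FPKM at 5 DAF and 295, 596 and 295 FPKM at 10 DAF, without overlap, a log2 change of -2.31 ± 0.36 (limma adjusted p = 0.00028) as deposited and of -1.35 after rescaling. LOC_Os01g55690 (chr1:32072448-32082488) had 1557, 1524 and 7186 FPKM at 5 DAF and was not listed in the 3 libraries of 10 DAF, so no fold is given. A neighbour annotated on the same locus was unlisted in the same 3 libraries.

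Among the named factors, more were lower than higher under either scaling. Of the 128 factors, 105 passed the filter of 1 FPKM, and 0 were among the 100 highest genes at 10 DAF. As deposited, 59 of the 105 (56.2%) were called lower, against 35.2% of all tested genes. Called higher was 1 factor, against 2.51% of all tested genes. After rescaling 25 (23.8%) were lower, against 7.78% of all, and 5 were higher, against 7.22% of all. Their median log2 change was -1.17 as deposited and -0.32 rescaled, where all tested genes had -0.79 and 0.01. The 23 factors that were not tested had stage means of at most 1.51 FPKM, and 12 of them were AP2/ERF factors.

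**Figure D3:**
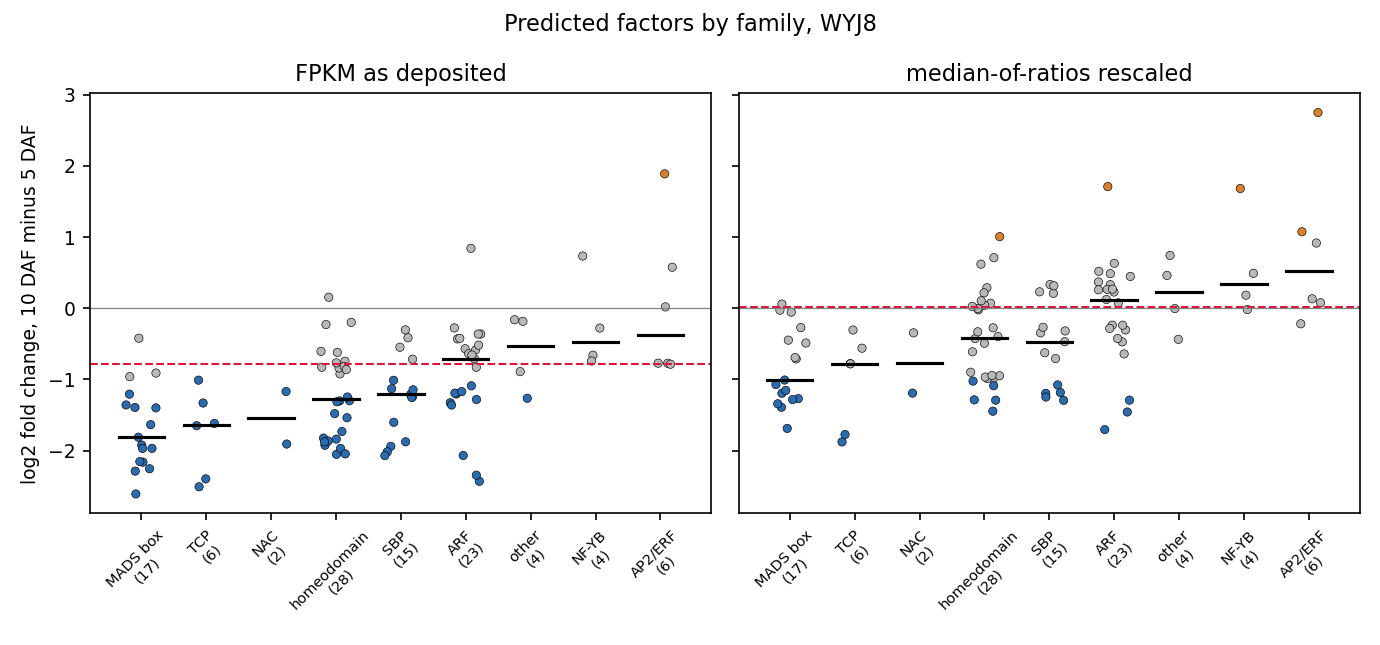
Log2 change (10 DAF minus 5 DAF) of the 105 tested factors by family, as deposited (left) and after rescaling (right), with the number tested in brackets. Each point is a factor (blue called lower, orange called higher, grey not called), black bars are family medians and the red dashed line is the median of all tested genes. The MADS-box median lies at -1.81 and -1.01, and the AP2/ERF median at -0.38 and 0.52.

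The MADS-box genes, which specify floral organs and ovules, were the family with the lowest median change under both scalings. Of 17 tested, 14 were lower as deposited and 9 after rescaling (background 35.2% and 7.78%), with median log2 changes of -1.81 and -1.01. As deposited, all 17 had a lower mean at 10 DAF without overlap of the stages. This was common on that scale. Among the 105 tested factors, 100 had a lower mean and 99 had no overlap. Of all tested genes, 90.1% had a log2 change below 0. *OsMADS15* (LOC_Os07g01820, chr7:471173-477655), related to the APETALA1 genes of *Arabidopsis*, fell furthest. It had 82.7, 117 and 82.3 FPKM at 5 DAF and 12.5, 18.6 and 12.7 FPKM at 10 DAF, a log2 change of -2.61 ± 0.19 (limma adjusted p = 9.6e-06) and -1.69 rescaled. Its relative *OsMADS14* went from 34.8, 44.8 and 32.5 FPKM to 8.43, 10.3 and 7.57 FPKM and was also lower under both scalings. Replicate 2 was the highest library at each stage in both genes.

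The AGAMOUS-like genes *OsMADS58* and *OsMADS3*, known for stamen and carpel identity, were lower under both scalings as well. *OsMADS58* had 69.4, 70.7 and 49.6 FPKM at 5 DAF and 12.7, 16 and 9.08 FPKM at 10 DAF, and *OsMADS3* had 59.2, 55.6 and 44.9 FPKM and then 12.3, 17.7 and 10.6 FPKM. The AGL6-like gene *OsMADS6*, which is known to act in floral organ and meristem identity, went from 42.9, 55.1 and 37.5 FPKM to 8.11, 10.9 and 6.53 FPKM, a log2 change of -2.29 as deposited and -1.39 rescaled. Its relative *OsMADS17* changed by -2.16 and -1.27, and the SOC1-like gene *OsMADS56* by -2.15 and -1.28. In each of these 5 genes, as in all 17 tested MADS-box genes, all 10 DAF libraries were below all 5 DAF libraries on the deposited scale. Rescaled, the log2 changes of the 17 ran from -1.69 to 0.06. How many of all tested genes had no overlap was not counted.

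*OsMADS8* and *OsMADS7*, the most abundant MADS-box genes, fell less than the family median. *OsMADS15*, which fell furthest, came next in mean level at 5 DAF. *OsMADS8*, a SEPALLATA-like gene, was at 226, 252 and 193 FPKM at 5 DAF and at 78.4, 105 and 71.9 FPKM at 10 DAF, and its relative *OsMADS7* was at 182, 213 and 147 FPKM and then at 51.5, 72.8 and 48.9 FPKM. Their log2 changes were -1.39 and -1.63 as deposited and -0.45 and -0.69 rescaled, so both were called lower only as deposited. The same held for *OsMADS13*, an ovule identity gene, with -1.21 and -0.27. A pair of genes of the maternal tissues served as markers of seed coat and nucellus. *OsMADS29*, known for its part in nucellus degradation, went from 39.1, 44.2 and 33 FPKM to 14.4, 17.4 and 10.9 FPKM (log2 change -1.40 as deposited, called, and -0.49 rescaled, not called). *OsMADS21*, an ovule identity gene, had 68.1, 72.3 and 62.9 FPKM and then 35.4, 39.4 and 28.8 FPKM, with a log2 change of -0.96 that missed the fold limit and passed it without replicate 3 (-1.01). Rescaled, it was -0.03. Summed, the 2 markers ranged from 95.8 to 116 FPKM at 5 DAF and from 39.6 to 56.8 FPKM at 10 DAF, which is on the deposited scale only. Both belong to the 17 MADS-box genes counted above, and rescaled they lay above the family median of -1.01. Their part in the family's values was not tested.

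**Figure D4:**
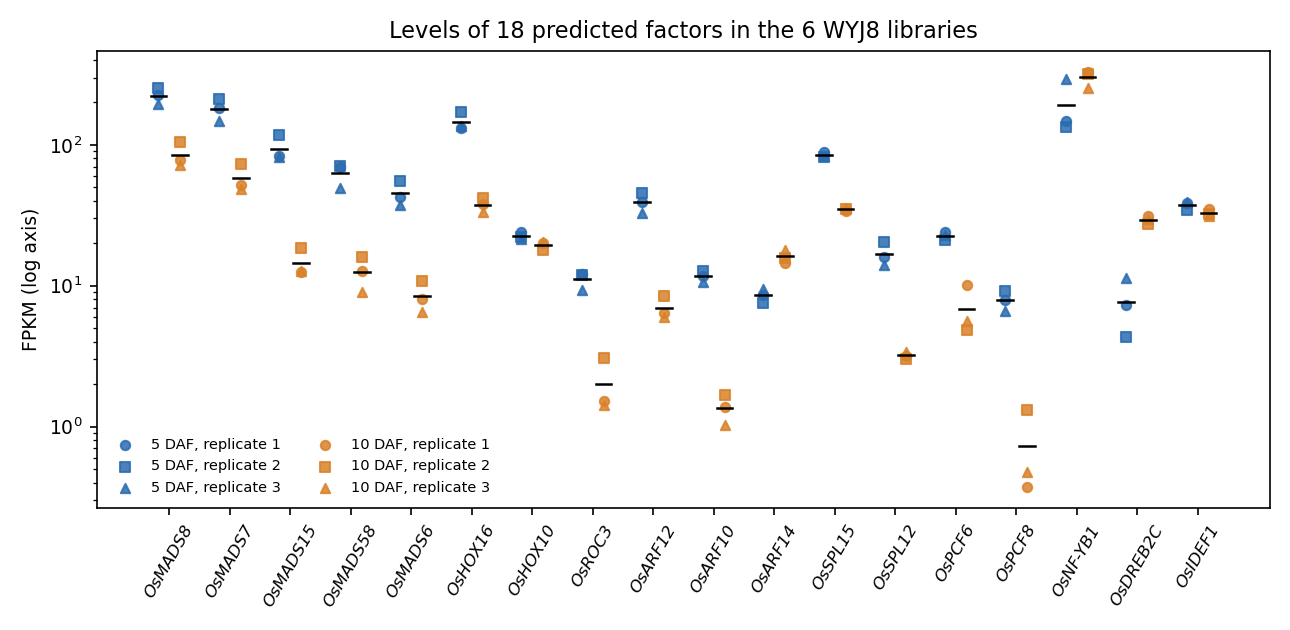
FPKM (log axis) of 18 factors in the 6 *WYJ8* libraries, blue for 5 DAF and orange for 10 DAF, with a marker shape per replicate and black bars for stage means. *OsMADS15* drops from 82.3 to 117 FPKM at 5 DAF to 12.5 to 18.6 FPKM at 10 DAF, while *OsDREB2C* rises to 27.4 to 31.0 FPKM and *OsNF-YB1* overlaps between the stages.

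The TCP factors, a family tied to cell proliferation, were all lower as deposited. All 6 were called, and 2 remained called after rescaling (background 35.2% and 7.78%), with family medians of -1.63 and -0.78. *OsPCF6* was at 24, 21.1 and 23.1 FPKM at 5 DAF and at 10.1, 4.83 and 5.66 FPKM at 10 DAF. *OsPCF3* went from 6.01, 12.1 and 8.1 FPKM to 0.726, 0.618 and 0.632 FPKM, and *OsPCF8* from 7.90, 9.19 and 6.57 FPKM to 0.373, 1.32 and 0.476 FPKM. These 2 were the members lower under both scalings, at -2.51 and -2.40 as deposited and -1.88 and -1.77 rescaled. *OsPCF2* and *OsPCF1*, which bind the promoter of the replication gene *PCNA* in rice, changed by -1.62 and -1.01 as deposited and by -0.78 and -0.31 rescaled. The call of *OsPCF1* was lost without replicate 1 (-0.92) or replicate 2 (-0.98) of 5 DAF.

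The SBP factors, which act in panicle branching and grain shape, gave 11 lower of 15 tested as deposited and 5 after rescaling (background 35.2% and 7.78%), with medians of -1.21 and -0.47. The most abundant member, *OsSPL15*, went from 89.3, 81.5 and 83.5 FPKM to 34.0, 35.2 and 35.8 FPKM, a log2 change of -1.25 that was -0.32 rescaled. *OsSPL12* was at 15.9, 20.5 and 14.1 FPKM at 5 DAF and at 3.20, 3.01 and 3.41 FPKM at 10 DAF, and it was lower under both scalings (-2.07 and -1.25). *OsSPL16*, the grain width gene, was low throughout, with 2.87, 5.23 and 2.75 FPKM and then 0.617, 0.681 and 0.189 FPKM, and was called under both scalings (-1.60 and -1.08). *OsSPL6* and *OsSPL9* were not called, and their changes of -0.72 and -0.55 turned to 0.21 and 0.33 when rescaled.

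Of the homeodomain factors, 15 of 28 (53.6%) were lower as deposited and 5 (17.9%) after rescaling, against 35.2% and 7.78% of all tested genes, with medians of -1.27 and -0.41. Divided by the predicted site, a division made after the values were seen and not tested, the HD-Zip I factors had 7 of 8 lower as deposited and 2 rescaled (background 35.2% and 7.78%). *OsHOX16* (LOC_Os02g49700, chr2:30381302-30383661), the most abundant of them, went from 133, 170 and 135 FPKM to 37.8, 41.7 and 33.4 FPKM. Its log2 change was -1.92 ± 0.14 (limma adjusted p = 1.1e-05) as deposited and -0.99 rescaled, just short of the fold limit, and *OsHOX4*, *OsHOX13* and *OsHOX20* gave -0.95, -0.99 and -0.97 on the rescaled scale. The HD-Zip III factors, regulators of organ polarity and vascular development, gave 0 calls of 4 under either scaling, a number too small to be read against that background. *OsHOX10* had 24.1, 22.3 and 21.3 FPKM at 5 DAF and 20.2, 17.8 and 20.6 FPKM at 10 DAF, and *OsHOX33* had 9.55, 8.55 and 9.2 FPKM and then 8.28, 6.76 and 7.87 FPKM. Their log2 changes were -0.20 and -0.23 as deposited and 0.71 and 0.62 rescaled, while those of *OsHOX9* and *OsHOX32* were -0.86 and -0.74 and then 0.03 and 0.07.

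Among the HD-Zip IV factors, which are known from the outermost cell layer, 3 of 6 were lower as deposited and 2 rescaled (background 35.2% and 7.78%). *OsROC3* fell from 12, 11.9 and 9.35 FPKM to 1.51, 3.07 and 1.42 FPKM, with log2 changes of -2.05 and -1.29. *OsROC5*, the other member given here, had 26.5, 24.5 and 27.6 FPKM and then 16.9, 16.4 and 16.7 FPKM, at -0.62 and 0.29. The HD-Zip II factors had 4 of 8 lower as deposited and 1 (12.5%) rescaled, where 35.2% and 7.78% of all tested genes were. *OsZHD7*, a zinc finger homeodomain factor with overlapping stages (7.14, 7.70 and 10.9 FPKM, then 12.3, 9.60 and 7.27 FPKM), was called higher after rescaling alone, at 1.01. Its change as deposited was 0.16.

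The ARF factors, which carry the transcriptional response to auxin, were close to the typical gene. As deposited 10 of 23 (43.5%) were lower, against 35.2% of all genes, and rescaled 3 were lower and 1 higher, with medians of -0.71 and 0.12. *OsARF12* (LOC_Os04g57610, chr4:34278411-34285869) went from 39.5, 45.9 and 33 FPKM to 6.36, 8.51 and 6.04 FPKM, a log2 change of -2.34 ± 0.16 (limma adjusted p = 8.7e-06) and -1.46 rescaled. *OsARF10* went from 11.7, 12.7 and 10.6 FPKM to 1.38, 1.67 and 1.02 FPKM, at -2.43 and -1.70. *OsARF6* went from 11.4, 13.2 and 12.2 FPKM to 1.73, 2.74 and 2.07 FPKM, at -2.07 and -1.29. These 3 were the ARF genes lower under both scalings.

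*OsARF14* moved the other way. It had 8.64, 7.53 and 9.53 FPKM at 5 DAF and 14.6, 15.8 and 18.1 FPKM at 10 DAF, without overlap, and its log2 change of 0.84 as deposited became 1.71 when rescaled, which was called. The most abundant member, *OsARF24*, had 113, 91.3 and 93.3 FPKM and then 83.1, 64.4 and 73.7 FPKM, with -0.42 as deposited and 0.52 rescaled. *OsARF4* gave -0.57 and 0.37, *OsARF25* gave -0.66 and 0.27, and neither was called. *OsARF23* was lower as deposited (-1.17) and not called when rescaled (-0.24). Of the 9 tested ARF factors with the further site, 5 were lower as deposited and 2 rescaled (background 35.2% and 7.78%). Of the 14 without it, 5 and 1 were lower, a difference that was not tested.

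The NF-YB factors are subunits of the CCAAT-binding complex, and *OsNF-YB1* is an endosperm gene known to act on sucrose transporter genes. *OsNF-YB1* (LOC_Os02g49410, chr2:30191470-30192489) had 148, 133 and 294 FPKM at 5 DAF and 331, 320 and 252 FPKM at 10 DAF. The stages overlapped through replicate 3 of both. The log2 change was 0.73 ± 0.28 (limma adjusted p = 0.036), short of the fold limit, and 1.68 when rescaled, which was called. Without replicate 3 of 5 DAF it was 1.09 as deposited (adjusted p = 0.0005) and was called. Over all libraries left out in turn it ranged from 0.52 to 1.09, with adjusted p from 0.0005 to 0.13. The other 3 subunits were far lower, between 1.85 and 11.3 FPKM, and none was called. *OsNFYB2* gave -0.66 as deposited and 0.18 rescaled. The entries LOC_Os05g38820 and LOC_Os05g49780, whose names and descriptions as B-3 and B-4 conflict in the study's list, gave -0.28 and -0.74 as deposited and 0.49 and -0.02 rescaled.

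*OsDREB2C* (LOC_Os08g45110, chr8:28321215-28322394), from a family known for drought and heat responses, was the factor called higher under both scalings. It had 7.31, 4.32 and 11.4 FPKM at 5 DAF and 31.0, 27.4 and 29.6 FPKM at 10 DAF, with no overlap. The log2 change was 1.89 ± 0.26 (limma adjusted p = 0.00013) as deposited and 2.75 rescaled, and it was 1.58 to 2.19 as deposited when libraries were left out in turn. *OsDREB2D* was called higher when rescaled (1.07), from 0.483, 0.705 and 1.40 FPKM to 2.05, 1.49 and 1.65 FPKM. *OsDREB2A* and *OsDREB2B*, with -0.77 each as deposited, gave 0.08 and 0.13 rescaled and were not called. LOC_Os01g49830, which carries AP2 and B3 domains, had overlapping stages, with 12.7, 17 and 22.3 FPKM and then 16.7, 20 and 15.2 FPKM. It gave 0.02 as deposited and 0.92 rescaled and was not called. Of the 18 AP2/ERF factors listed only 6 were tested.

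Of the remaining factors, *OsNAC68* was lower under both scalings (-1.91 and -1.19) and *OsNAC71* as deposited (-1.17 and -0.35). *OsIDEF1*, known for the response to iron deficiency, had 38.6, 34.6 and 39.6 FPKM and then 35, 32.5 and 31.2 FPKM. It gave -0.18 as deposited and 0.74 rescaled. *OsGAM1*, an aleurone MYB factor that responds to gibberellin, gave -0.89 and 0.00 and was not called, and *OsRF2b* gave -1.26, called, and -0.44. LOC_Os04g58000, a B3 domain factor, was low, at 1.62 to 2.77 FPKM in the 6 libraries, and was not called (-0.16 and 0.46). The reference gene *Ubq* had 403, 511 and 424 FPKM at 5 DAF and 388, 364 and 389 FPKM at 10 DAF. Its log2 change of -0.22 ± 0.18 as deposited turned to 0.73 when rescaled, and it was not called under either.

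**Figure D5:**
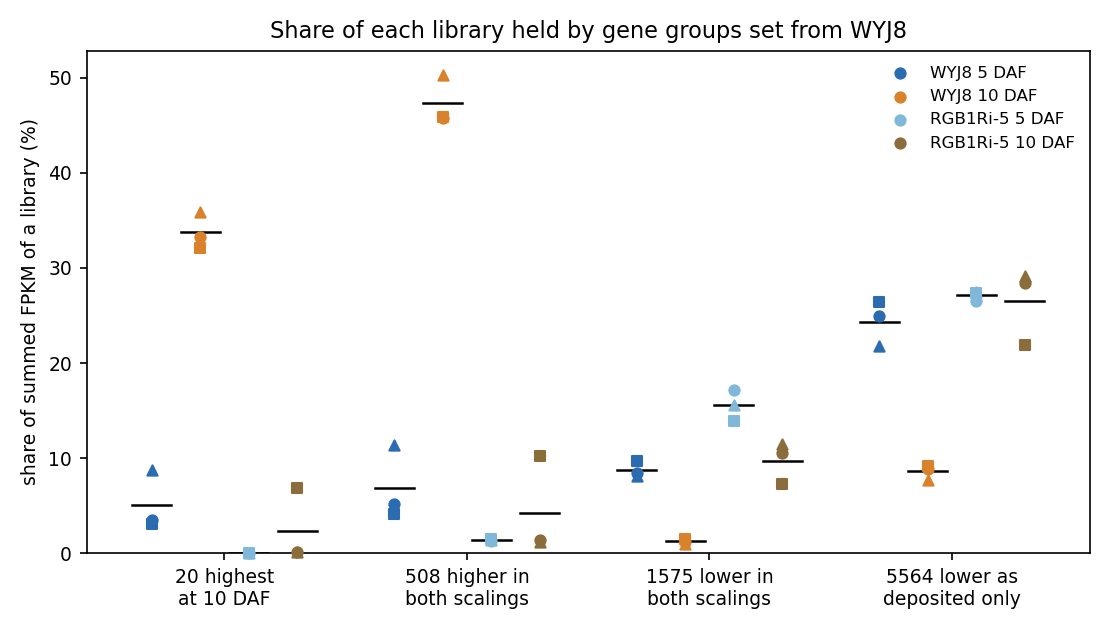
Share of the summed FPKM of each library (percent) held by 4 gene groups that were set from the *WYJ8* libraries, in the 4 groups of the series, with a marker shape per replicate and bars for means. The 508 genes higher in *WYJ8* at 10 DAF hold 45.8% to 50.3% there and 1.2% to 10.2% in *RGB1Ri-5* at 10 DAF.

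Set beside the wildtype, the RNA interference line had median changes nearer 0 in the same genes. The 508 genes higher in *WYJ8* had a median log2 change of 1.71 there and of 0.30 in *RGB1Ri-5*, where all tested genes had 0.13. The 1575 genes lower in *WYJ8* under both scalings had -2.05 there and 0.22 in *RGB1Ri-5*. Their summed share in *RGB1Ri-5* was nevertheless lower at 10 DAF. It was 17.2%, 13.9% and 15.6% at 5 DAF and 10.5%, 7.23% and 11.5% at 10 DAF. The gene groups were set from the wildtype values, so these medians and shares are a description. The stage change of *RGB1Ri-5* minus that of *WYJ8* was fitted over all 12 libraries. It was called at a limma adjusted p under 0.05 and a difference of at least 1 (log2). It was called higher in 8796 of the 20257 genes (43.4%) and lower in 851 (4.2%) as deposited. After rescaling it was called higher in 2310 (11.4%) and lower in 2203 (10.9%). Without replicate 2 of *RGB1Ri-5* at 10 DAF the counts as deposited were 9676 and 870.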

How the data were processed

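Total RNA of grains was sequenced on an Illumina platform. The authors filtered the reads, aligned them to Release 7 of the MSU rice annotation with TopHat 2.1.0 and deposited FPKM values per gene from Cufflinks 2.1.1. Strand use and the treatment of reads with several matches are not given in the sources used here. Groups and replicate numbers were read from the sample titles.

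Where a library did not list a gene, 0 FPKM was used (154 of the 20257 tested genes in at least 1 of the 6 *WYJ8* libraries). Those averaging 1 FPKM or more over these libraries were fitted as log2(FPKM + 1) with limma 3.58.1 in R 4.3.3 (with its trend option, p-values adjusted by Benjamini-Hochberg across the tested genes), as deposited and after median-of-ratios rescaling. The study's limits (adjusted p under 0.05, log2 change of at least 1) were used. Its Cufflinks test needs mapped reads and was not repeated. Means and SD are of FPKM, and SE are of log2 changes. On simulated data of 20257 genes for this comparison, 89 of 100 genes changed by 1.5 and 93 of 100 changed by 2.5 (log2) were recovered, and 2 unchanged genes were called.

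The depth per library is unknown, since FPKM hold no counts. For genes under 0.3 FPKM in both libraries, the most common ratio of replicate 1 of 5 DAF to another *WYJ8* library was 0.933 to 1.07. This ratio measures relative depth only if such values come from single reads. Low values did not resolve into whole reads, so no counting interval is given.

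Deviations from the stage means correlated between same-numbered libraries at 0.115, 0.254 and 0.181 for replicates 1, 2 and 3. Each was over the limit of 0.1 used here. Libraries of different numbers were not compared, so these values cannot decide whether the numbers pair the samples. The labels and methods state no pairing, and the main fit used none. A replicate block gave 511 genes higher and 7147 lower.

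Gene names come from the entries with an identifier in the study's list of predicted factors and its methods, which give identifiers beside them. Classes by product name (storage proteins, starch enzymes, cell type markers) were planned and could not be built, because the reference at hand is of another assembly and holds no matching identifiers. Named are, in each family, the up to 4 tested members with the highest mean; the largest decreases among factors called under both scalings with at least 10 FPKM and no overlap; *OsNF-YB1*, *OsDREB2C*, *OsMADS21*, *OsMADS29* and *Ubq*; and 4 identifiers without a name. *OsARF14*, *OsHOX4*, *OsHOX9*, *OsHOX10*, *OsHOX13*, *OsHOX32*, *OsHOX33*, *OsDREB2D*, *OsZHD7*, *OsPCF1*, *OsPCF8*, *OsMADS3*, *OsMADS14* and *OsSPL16* were added after their values were seen. The comparison, the families and the tests were chosen with earlier results of these data known. Alternatives are given in the closing section.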

Additional observations from a re-analysis of the deposited data

Results flagged for a closer look

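For 12 of the 63 named genes with a log2 change, the stage change differed between *RGB1Ri-5* and *WYJ8* under both scalings. The test was of the difference itself over all 12 libraries (limma, adjusted p under 0.05 and a difference of at least 1 on the log2 scale). Such differences were common. Of all tested genes, 43.4% were called higher in *RGB1Ri-5* and 4.2% lower as deposited, and 11.4% and 10.9% rescaled. The 12 genes are therefore a description and do not stand out by their number. A gene not listed in *WYJ8* at 10 DAF (LOC_Os01g55690) was left out, since it has no measured change there. The MADS-box gene *OsMADS58* changed by -2.25 in *WYJ8* and by 1.35 in *RGB1Ri-5*, a difference of 3.61 as deposited and 2.56 rescaled. For *OsMADS29* the changes were -1.40 and 2.19, and the difference was 3.59 (2.52 rescaled). *OsMADS21*, at -0.96 and 1.57, differed by 2.53 (1.45 rescaled). The SEPALLATA-like genes *OsMADS7* and *OsMADS8* differed by 2.39 and 2.11 (1.31 and 1.02 rescaled).

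The TCP genes *OsPCF6*, *OsPCF8* and *OsPCF3* differed by 3.29, 2.94 and 1.95 (2.28, 2.27 and 1.30 rescaled). *OsPCF3* fell in *WYJ8* by 2.51 and had -0.56 in *RGB1Ri-5*. *OsARF10*, with -2.43 and 0.74, differed by 3.17 (2.37 rescaled), and *OsROC3*, with -2.05 and 1.04, by 3.08 (2.22 rescaled). LOC_Os12g36880 had -2.31 and 0.50 and differed by 2.80 (1.71 rescaled). In the other direction, LOC_Os01g49830 had 0.02 and -1.08 and differed by -1.10 (-2.13 rescaled). *OsNF-YB1*, with 0.73 and 4.39, differed by 3.66 as deposited (limma adjusted p = 0.0044) and by 2.45 rescaled, where it missed the threshold (adjusted p = 0.079). These differences share the *WYJ8* libraries by which several of these genes were chosen.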

How the results depend on the processing

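Scaling moved the balance of higher and lower genes. As deposited, 508 genes were higher and 7139 lower. With an equal total without the 100 highest genes the counts were 967 and 2624, with quantile normalization 1255 and 1503, and with median-of-ratios rescaling 1462 and 1575 (1469 and 1588 with the replicate block as well). With no fold limit they were 1000 and 15907, and with a mean of at least 5 FPKM 4507 were lower, since fewer genes were tested. Of the factors, 59 were lower and 1 higher as deposited. They were 33 and 3 with an equal total without the 100 highest genes, 27 and 4 with quantile normalization, 25 and 5 with median-of-ratios rescaling (with and without the replicate block), 92 and 4 with no fold limit, and 2 were higher with a pseudocount of 0.1. Leaving out each library in turn gave 465 to 573 genes higher, 6330 to 7939 lower and 1 to 2 factors higher as deposited, and 1242 to 1618 higher, 1363 to 1912 lower and 3 to 6 factors higher after rescaling. The ranges after rescaling come from an alternative chosen after seeing the data.

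The genes with a higher stage effect in *RGB1Ri-5* numbered 2310 after median-of-ratios rescaling, 4731 with an equal total without the 100 highest genes and 2917 with quantile normalization. Those with a lower effect numbered 2203 after median-of-ratios rescaling, 1817 with quantile normalization, 1590 over all genes with a value above 0 and 434 with a mean of at least 5 FPKM.

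Of the 63 named genes with a log2 change, these changed direction. After median-of-ratios rescaling *OsHOX9* had 0.026, *OsHOX32* 0.071, *OsDREB2A* 0.077, *OsDREB2B* 0.13, *OsNFYB2* 0.18, *OsSPL6* 0.21, *OsARF25* 0.27, *OsROC5* 0.29, *OsSPL9* 0.33, *OsARF4* 0.37, LOC_Os04g58000 0.46, LOC_Os05g38820 0.49, *OsARF24* 0.52, *OsHOX33* 0.62, *OsHOX10* 0.71, *Ubq* 0.73 and *OsIDEF1* 0.74. With an equal total without the 100 highest genes *OsROC5* had 0.0023, *OsSPL9* 0.056, *OsARF4* 0.074, *OsARF24* 0.22, LOC_Os05g38820 0.25, LOC_Os04g58000 0.27, *OsHOX33* 0.35, *OsHOX10* 0.42, *Ubq* 0.43 and *OsIDEF1* 0.45. With quantile normalization *OsARF4* had 0.00688, *OsDREB2A* 0.073, *OsARF24* 0.094, *OsROC5* 0.10, *OsHOX32* 0.13, LOC_Os05g49780 0.15, *OsNFYB2* 0.19, *OsSPL9* 0.23, *OsIDEF1* 0.45, *OsHOX10* 0.52, *OsHOX33* 0.61, LOC_Os05g38820 0.61 and LOC_Os04g58000 0.68. *OsZHD7* had -0.013 without replicate 1 of 10 DAF. LOC_Os01g49830, at 0.02, had -0.070 with an equal total, and -0.17 to 0.21 with libraries left out in turn. None of these was called as deposited. The replicate block changed the call of 0 named genes. The counts without the 2 genes of the locus unlisted at 10 DAF, chosen after seeing the data, stayed within 1.5 times. The cause of these changes was not tested.

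The depth behind each value is unknown, and the genes that dominate at 10 DAF are described by position and share, not by name. The test of a share between stages, an exact permutation test of 3 libraries against 3, cannot go below p = 0.1.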

Other observations

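The 100 highest genes at 10 DAF were annotated on short loci, with a median length of 1697 bases, against 2058 bases for the 100 highest at 5 DAF and 3551 bases for all tested genes. These lengths include introns, and FPKM is already divided by transcript length.

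LOC_Os01g55690, which was not listed in the 3 *WYJ8* libraries of 10 DAF, had 7.79, 16.8 and 5.47 FPKM in *RGB1Ri-5* at 5 DAF and 8.30, 3765 and 11.5 FPKM at 10 DAF. The high value was in replicate 2, the library that stood apart. It was the only gene with a mean above 10 FPKM at 5 DAF in *WYJ8* that was unlisted in all 3 libraries of 10 DAF, and the other gene annotated on its locus was at 6.05 to 6.95 FPKM at 5 DAF and unlisted in the same 3 libraries.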
